A study of Mus musculus with 278 samples.

Results

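The cells described here are the 130 mouse keratinocytes of the AG library series, 66 from untreated and 64 from 4-hydroxy-tamoxifen (4-OHT) treated co-cultures, out of 278 labelled cells in the data. Untreated cells were those whose library name began AG1neg and whose title said untreated, and treated cells those whose name began AG2pos and whose title said treated. A further 8 AG cells, 5 titled treated and 3 titled untreated, carried a name and a title that disagreed and were left out of the main values. Keratinocytes had been grown from adult dorsal skin, and wild-type cells were mixed with K14ΔNβ-cateninER cells at 9 parts to 1. The K14ΔNβ-cateninER transgene, driven by the keratin 14 promoter of basal keratinocytes, encodes a form of beta-catenin that escapes degradation and is joined to the ligand-binding part of the oestrogen receptor, so that 4-OHT switches it on. Both conditions contained these transgenic cells. The treated co-cultures received 200 nM 4-OHT for 24 h and the untreated ones received the solvent DMSO. The transgenic cells, which the study identified by transgene reads, were not told apart from wild-type cells here. No set of wild-type cells given 4-OHT without transgenic neighbours was analysed, so an action of the drug itself and an action of activated neighbours cannot be told apart.

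Wnt signals stabilise beta-catenin, which enters the nucleus and switches on target genes together with TCF/LEF factors. In skin the pathway governs hair follicle formation and the choice between epidermal lineages, and activated cells can signal to their neighbours. Several genes described below are known targets of hypoxia-inducible factors (HIF), which are held down by oxygen-dependent prolyl hydroxylases and drive glycolysis, mitophagy and oxygen-sensing feedback when those enzymes are inactive.

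The values were TPM, a measure of transcript abundance corrected for gene length and summing to 1000000 in each cell, and 10940 genes with TPM over 1 in more than 5 of the 130 cells were compared as log2(TPM + 1). The labels named no separate cultures, captures or animals within a condition, so each condition counted as 1 sample. For that reason no test was made between the 2 AG conditions. A difference below is the mean log2(TPM + 1) of treated cells minus that of untreated cells, and the SD beside a mean is the spread over cells. A share of cells is given with its exact Clopper-Pearson 95% interval, which covers the counting of cells only. Library name, culture, capture and treatment cannot be told apart. The labels of treated and untreated cells also carried interleaved library numbers, and values were computed separately for numbers up to 96 (37 untreated and 37 treated cells) and over 96 (29 and 27 cells).

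The keratinocyte label was checked against marker genes. Krt14 and Krt5, the keratin pair of basal keratinocytes, had TPM over 1 in all 66 untreated and all 64 treated cells. Krt14 had a median of 4864 TPM in untreated and 4997 TPM in treated cells. Of the 8 keratinocyte markers listed, 7 were in the data, and 1 of these, Itgb4, was at 0 in every AG cell. Of the fibroblast markers, Col1a1 (a fibrillar collagen chain) had TPM over 1 in 24 untreated and 20 treated cells, and the summed TPM of the 4 fibroblast markers in the data ran from 0 to 506 in untreated cells (median 1.05) and from 0 to 318 in treated cells (median 0). The summed TPM of the 2 endothelial markers had a median of 0 in both conditions, and that of the 3 leukocyte markers a median of 24.0 in untreated and 33.5 in treated cells, mostly from Lyz2. The summed TPM of the 3 melanocyte markers had a median of 45.2 and 35.3, with Tyr over 1 TPM in all 130 cells. For the 7 hair follicle and sebaceous markers in the data the summed TPM had a median of 980 in untreated and 933 in treated cells. Among them, Sox9 was over 1 TPM in 100% of untreated and 98.4% of treated cells. The part of these genes in the differences below was not tested.

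Untreated cells had between 3719 and 7046 genes with TPM over 1 (median 6191), and treated cells between 2538 and 7410 (median 6381). Cells with 5000 or fewer genes made up 11 of 66 untreated cells (16.7%, interval 8.62% to 27.9%) and 7 of 64 treated cells (10.9%, interval 4.51% to 21.2%). Among library numbers up to 96 such cells made up 18.9% of untreated and 5.41% of treated cells, and among those over 96 they made up 13.8% and 18.5%. Differences are also given over cells with more than 5000 genes.

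The treated libraries numbered 90 and 91 were far more alike than any other pair of AG cells. Their log2(TPM + 1) values had a Pearson correlation of 0.979 over genes, against 0.831 for the next of the 8385 pairs and a median of 0.700 over all pairs. They may be 1 cell or library counted 2 times, which cannot be tested without read counts. Both are kept among the 64 treated cells, so the means, SDs and intervals below count both. With the pair averaged and counted as 1 cell (63 treated cells), an alternative chosen after seeing the data, 345 genes were higher and 62 lower by 1 or more, 48 genes were higher and 12 lower in share of cells by 25 percentage points or more, and the difference of Bnip3 was 1.38, of Adm 2.10 and of Jag1 -1.82. Over the 84 genes followed through the alternatives, the difference moved by at most 0.088 and the share by at most 1.36 percentage points.

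Over all 10940 genes the median difference was 0.06, the lower and upper quartiles were -0.18 and 0.34, and 56.3% of the genes had a difference above 0. Of these genes, 335 (3.06%) were higher in treated cells by 1 or more on the log2(TPM + 1) scale and 63 (0.576%) were lower by 1 or more. With only cells of more than 5000 genes the counts were 216 and 44. The excess of higher genes depended on how cells were averaged and on the library numbers. Of the genes past 1 in either direction, 84.2% were higher in treated cells, against 29.1% (442 higher, 1076 lower) when TPM was averaged before taking the logarithm and 44.7% (310 higher, 384 lower) among library numbers over 96. Among library numbers up to 96, 9.36% of the genes were higher and 1.75% lower by 1 or more. Across genes, the differences of the library number ranges had a Pearson correlation of 0.19, a description over genes that share the same cells within each range.

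Genes known as HIF targets held several of the largest differences, and the 10 named genes with the largest positive level difference included Ankrd37, Adm and Ndufa4l2. Bnip3 had the largest positive difference among genes seen in nearly all cells (TPM over 1 in at least 90% of the cells of each condition). The promoters of 4 HIF targets, Bnip3, Ankrd37, Egln3 and Adm, are shown because they allow ACGTG to be looked up beside the values. ACGTG is a form of the sequence that HIF is known to bind. Ndufa4l2 and Ndrg1 had no entry in the promoter reference used, so neither was searched. Each is 300 bases, from 250 before to 50 after the start of the gene, read 5′ to 3′ on the gene's strand from RefSeq (GRCm38.p6), with ACGTG and its reverse complement CACGT in capitals, where the letters overlap in CACGTG and count as 2 matches. Bnip3 (chr7:138909457-138909756, minus strand) had 2 matches, Ankrd37 (chr8:45999801-46000100, minus strand) had 2, Egln3 (chr12:54203825-54204124, minus strand) had 1, and Adm (chr7:110627407-110627706, plus strand) had 0.
Bnip3: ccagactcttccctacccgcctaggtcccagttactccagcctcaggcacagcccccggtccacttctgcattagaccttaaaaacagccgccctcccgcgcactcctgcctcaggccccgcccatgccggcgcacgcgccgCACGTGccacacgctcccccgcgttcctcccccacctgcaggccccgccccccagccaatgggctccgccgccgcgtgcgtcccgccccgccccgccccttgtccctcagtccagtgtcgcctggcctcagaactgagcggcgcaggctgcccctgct
Ankrd37: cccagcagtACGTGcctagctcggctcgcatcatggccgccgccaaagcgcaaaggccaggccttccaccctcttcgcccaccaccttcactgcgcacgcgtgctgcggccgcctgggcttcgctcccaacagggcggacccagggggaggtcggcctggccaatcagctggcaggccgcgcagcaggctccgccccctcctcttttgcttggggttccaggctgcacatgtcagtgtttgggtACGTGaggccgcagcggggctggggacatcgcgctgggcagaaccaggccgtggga
Egln3: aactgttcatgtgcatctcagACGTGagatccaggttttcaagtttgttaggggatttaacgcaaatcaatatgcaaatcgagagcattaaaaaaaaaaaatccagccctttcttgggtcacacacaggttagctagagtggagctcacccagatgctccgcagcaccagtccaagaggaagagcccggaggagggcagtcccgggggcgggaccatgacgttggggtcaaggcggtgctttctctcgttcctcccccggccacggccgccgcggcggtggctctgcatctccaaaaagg
Adm: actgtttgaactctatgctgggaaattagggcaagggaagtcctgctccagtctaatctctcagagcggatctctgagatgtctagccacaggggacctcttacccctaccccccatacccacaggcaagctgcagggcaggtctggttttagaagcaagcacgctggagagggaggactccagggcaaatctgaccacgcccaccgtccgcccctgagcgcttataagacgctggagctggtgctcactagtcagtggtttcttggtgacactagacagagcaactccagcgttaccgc

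These letters stood in 19.6% of all 32851 promoters of that length. Counted by gene, they stood in 15 of 21 matched genes of the HIF list described next, in 11 of 16 glycolytic enzymes, in 28.3% of the 8552 matched genes among those compared and in 29.8% of the 272 matched genes higher by 1 or more. The HIF list was made of known HIF targets, so its share describes how the list was chosen and not these cells. The share among genes higher by 1 or more was near that of all matched genes compared. A match describes the letters in the window and does not show a bound site.

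Bnip3, which marks mitochondria for removal by mitophagy, lies on chromosome 7 from 138890836 to 138909519 (minus strand, protein coding, GRCm38). Its TPM ran from 0 through a median of 1018 to 18469 in untreated cells and from 4.10 through a median of 2106 to 7739 in treated cells. The ranges overlapped, and the single highest value was in an untreated cell. Mean log2(TPM + 1) was 9.24 ± 2.50 (SD, 66 cells) and 10.66 ± 1.67 (SD, 64 cells), a difference of 1.42, or 0.92 over cells with more than 5000 genes and 0.68 from the logarithm of the mean TPM. Adm, which encodes the vasodilator peptide adrenomedullin (chromosome 7, 110627661 to 110629820), had a median TPM of 30.1 in untreated cells (0 to 1846) and 310 in treated cells (0 to 2101). Its difference was 2.14, and 2.13 over cells with more than 5000 genes. TPM over 1 was seen in 42 of 66 untreated cells (63.6%, interval 50.9% to 75.1%) and in 52 of 64 treated cells (81.2%, interval 69.5% to 89.9%).

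Ankrd37, an ankyrin-repeat gene known as a HIF target, had a median TPM of 17.6 in untreated cells (0 to 216) and 85.3 in treated cells (0 to 551). TPM over 1 was seen in 68.2% of untreated cells (interval 55.6% to 79.1%) and in 92.2% of treated cells (interval 82.7% to 97.4%). The difference was 2.16, with 2.50 among library numbers up to 96 and 1.74 among those over 96. Ndufa4l2, which encodes a mitochondrial protein that lowers complex I activity in hypoxia, was at a median of 0 TPM in untreated cells (0 to 1156) and 24.0 in treated cells (0 to 2068). It was over 1 TPM in 21 of 66 untreated cells (31.8%, interval 20.9% to 44.4%) and 34 of 64 treated cells (53.1%, interval 40.2% to 65.7%), and each condition held both cells at 0 and cells with high values. Egln3, the HIF prolyl hydroxylase that HIF itself induces, had a median TPM of 71.2 in untreated cells (0 to 666) and 158.6 in treated cells (0 to 2475), a difference of 1.32.

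**Figure D1:**
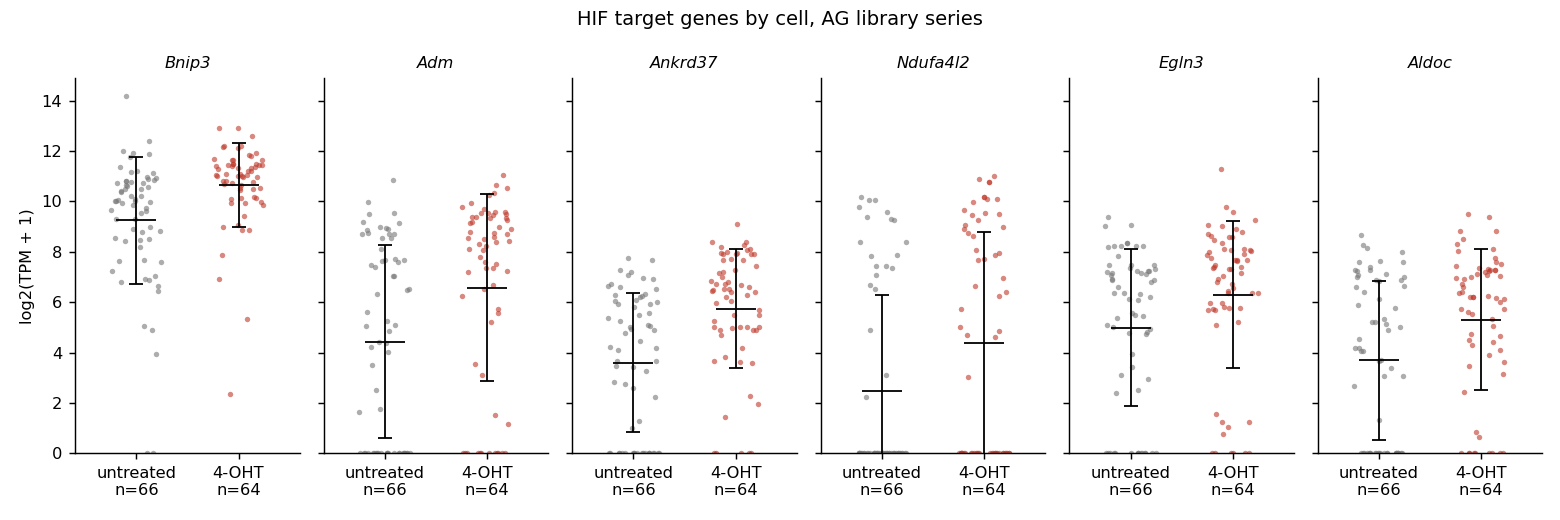
Log2(TPM + 1) of 6 HIF target genes in each AG cell, untreated (grey, 66 cells) and 4-OHT treated (red, 64 cells), with the mean as a bar and the SD over cells as whiskers. The median TPM of Bnip3 was 1018 in untreated and 2106 in treated cells, and every gene overlapped between conditions.

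The list of HIF target genes outside glycolysis was drawn up after values had been seen, and describes these cells only. Of its 32 genes, 28 were compared, 6 were higher by 1 or more (Ankrd37, Adm, Ndufa4l2, Bnip3, Egln3 and Ndrg1), 0 were lower by 1 or more, and 22 had a difference above 0, where 3.06% of all genes were higher by 1 or more and 56.3% were above 0. The median difference over the list was 0.29, and 0.33 over cells with more than 5000 genes, against 0.06 for all genes. Other members were close to 0, among them Pdk1 at -0.06, Car9 (carbonic anhydrase 9) at 0.17 and P4ha1 at 0.25, and Loxl2 was at -0.58. The mRNA of Hif1a, the oxygen-regulated HIF subunit, which is controlled mostly at the protein level, had TPM over 1 in all 130 cells and a difference of 0.02. Averaged over the 28 genes in each cell, the list stood at a median of 4.49 in untreated cells (2.30 to 6.31) and 5.18 in treated cells (1.74 to 6.80), and 49 of 64 treated cells lay above the untreated median. Over cells, Bnip3 and Adm had a Spearman rho of 0.64 in untreated and 0.51 in treated cells, a description of cells that share a library set. Bnip3 also had a rho of 0.38 with the number of genes detected in untreated cells and -0.23 in treated cells.

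Of 16 glycolytic enzymes compared, 15 had a difference above 0 (56.3% of all genes), 3 were higher by 1 or more (3.06% of all genes) and 0 lower by 1 or more, with a median of 0.55 (0.42 over cells with more than 5000 genes). Aldoc, an aldolase isozyme, had a median TPM of 16.5 in untreated cells (0 to 405) and 72.6 in treated cells (0 to 720), a difference of 1.61. Eno1 (enolase) was higher by 1.22 and Pkm (pyruvate kinase) by 1.09. Pgk1, phosphoglycerate kinase and the most abundant in TPM of the enzymes named here, had a median TPM of 2259 in untreated cells and 3124 in treated cells, and was over 1 TPM in every cell. Slc2a1, the glucose transporter GLUT1, had medians of 138.4 and 134.3 TPM although its mean difference was 0.68, and it was over 1 TPM in 60 of 66 untreated and 63 of 64 treated cells. Eno1 and other glycolytic genes have many near-identical pseudogene copies, and the study discarded reads mapping to several places, so their levels are uncertain.

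Genes of oxidative phosphorylation and of the ribosome were also higher on average, while the medians over cells lay closer together than the means. Of 72 nuclear genes for respiratory complexes and ATP synthase, taken by symbol after values had been seen, 67 had a difference above 0 (56.3% of all genes) and 11 were higher by 1 or more (3.06% of all genes), with a median of 0.64 (0.40 over cells with more than 5000 genes). Sdhd, a membrane anchor of complex II, had the largest difference, 1.63, with a median TPM of 469 in untreated and 686 in treated cells. In the average cell the list stood at 6.68 ± 1.76 (SD, 66 untreated cells) and 7.30 ± 1.35 (SD, 64 treated cells), and the medians over cells were 7.51 and 7.70. The lower quartile was 6.79 in untreated and 7.56 in treated cells. For 72 ribosomal protein genes the median difference was 0.49 (0.28 over cells with more than 5000 genes), 69 were above 0, against 56.3% of all genes, and 2 were higher by 1 or more, a share near the 3.06% of all genes. Rps3, a small-subunit protein, was higher by 1.18, or 0.39 over cells with more than 5000 genes.

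**Figure D2:**
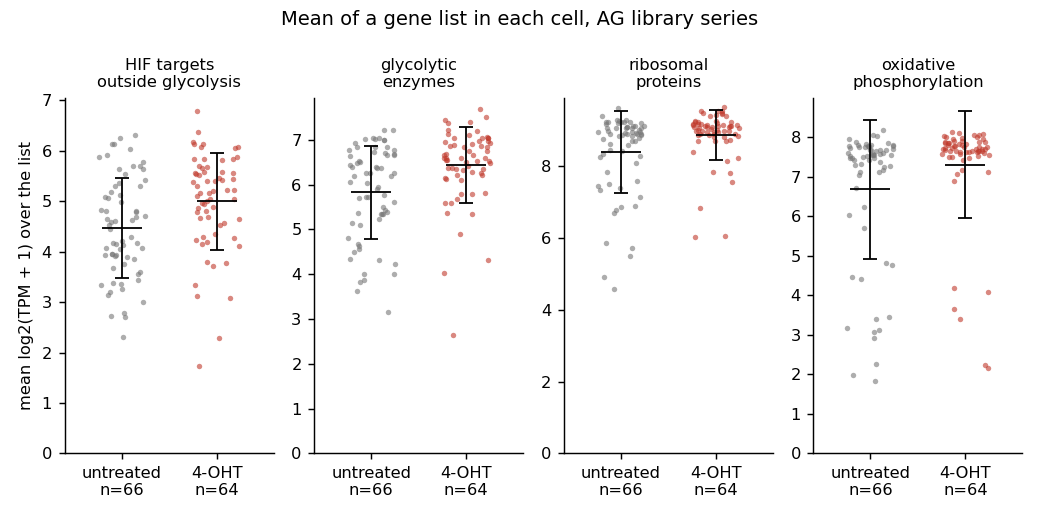
Mean log2(TPM + 1) over a gene list in each AG cell, untreated (grey) and 4-OHT treated (red), with the mean and SD over cells. For oxidative phosphorylation genes the bulk of both conditions lay near the medians of 7.51 and 7.70, and single cells of both conditions reached far lower, down to 1.83 (untreated) and 2.15 (treated).

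The spread of expression over cells was lower in treated cells for the ribosomal protein genes. Among 1793 genes with TPM over 1 in at least 90% of the cells of each condition, the median SD of log2(TPM + 1) was 1.73 in untreated and 1.58 in treated cells, and 66.8% of the genes had the lower SD in treated cells. For the 67 ribosomal protein genes among them the median SD was 1.67 in untreated and 1.08 in treated cells. Their median difference in SD was -0.53, against -0.11 over all 1793 genes. Over cells with more than 5000 genes these differences came closer together, at -0.23 and -0.16. Among those cells 75.9% of the 1793 genes had the lower SD in treated cells. For ribosomal protein genes the difference came to -1.07 among library numbers up to 96 and to 0.069, of the other sign, among numbers over 96.

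Cholesterol synthesis and uptake genes had a median difference of 0.46 over 22 genes. Of them 17 were above 0 (56.3% of all genes) and 2 were higher by 1 or more (3.06% of all genes). These were Ebp, a sterol isomerase (1.06), and Acat2, which condenses acetyl-CoA at the entry to the pathway (1.04). Insig1, which holds back sterol synthesis when sterols are plentiful, was at -0.80. Metallothioneins and redox enzymes had a median of 0.39 over 20 genes but 0.14 over cells with more than 5000 genes. Hmox1, the haem-degrading enzyme, had a difference of 1.38, with a median TPM of 0.85 in untreated and 45.8 in treated cells. Mt2, a metal-binding metallothionein, had a difference of 1.11, with a median TPM of 182.7 in untreated cells (0 to 3368) and 332 in treated cells (0 to 6008).

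Other named genes with large positive differences belonged to no common list. Dnajc15, a mitochondrial co-chaperone, had a median TPM of 11.4 in untreated and 93.1 in treated cells. Krt13, a keratin of internal stratified epithelia, had medians of 111.8 and 161.8 TPM and a difference of 1.95, and was over 1 TPM in 43 of 66 untreated and 57 of 64 treated cells. Tbccd1, Dimt1, Slc18a2, Ppp6c and Rbbp9 had differences between 1.81 and 2.04. In nearly all cells, Mdh2 (mitochondrial malate dehydrogenase), Cav2 (caveolin 2), Ap2m1 (a clathrin adaptor subunit) and Slc25a5 (an ADP/ATP carrier) followed Bnip3, with differences between 1.27 and 1.304, which were between 0.63 and 0.77 over cells with more than 5000 genes.

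Genes lower in treated cells included a Notch ligand, a chemokine and immediate early genes. Jag1, which encodes the Notch ligand Jagged1 (chromosome 2, 137081456 to 137116644, minus strand), had TPM from 30.9 through a median of 608 to 7498 in untreated cells and from 0 through a median of 235 to 1705 in treated cells. Mean log2(TPM + 1) was 9.44 ± 1.704 (SD, 66 cells) and 7.66 ± 2.05 (SD, 64 cells), a difference of -1.78. It was -1.71 over cells with more than 5000 genes, -1.72 among library numbers up to 96 and -1.86 among those over 96. The ranges overlapped, with the highest values all in untreated cells. The receptor Notch2 was at -0.90, and Notch1 was at 0.63 but at -0.56 from the logarithm of the mean TPM. Over 11 Notch genes the median was -0.13. Of them, 1 was lower by 1 or more (0.576% of all genes) and 0 were higher (3.06% of all genes). Cxcl5, a neutrophil-attracting chemokine (chromosome 5, 90759360 to 90761624), had the lowest difference of the genes compared, -2.09, with a median TPM of 57.5 in untreated cells (0 to 7593) and 18.5 in treated cells (0 to 6502).

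Atf3, a stress-induced transcription factor, had a median TPM of 62.1 in untreated cells (0 to 3762) and 7.84 in treated cells (0 to 476). TPM over 1 was seen in 52 of 66 untreated cells (78.8%, interval 66.98% to 87.9%) and 37 of 64 treated cells (57.8%, interval 44.8% to 70.1%). Ier2, an immediate early gene, had a difference of -1.50. Over 20 AP-1 and immediate early genes the median was -0.28, with 14 below 0 and 2 lower by 1 or more (Atf3 and Ier2). Of all genes, 56.3% were above 0 and 0.576% were lower by 1 or more. Fos was at -0.31, Jun at -0.46 and Egr1 at -0.56, while Junb was at 0.19 and Klf4 at 0.56 (-0.15 from the logarithm of the mean TPM). Dusp6, the phosphatase that ERK signalling induces to limit itself, had a median TPM of 114.9 in untreated cells (0 to 2917) and 64.5 in treated cells (0 to 777), a difference of -1.63. A list of 14 ERK-responsive and feedback genes was drawn up after values had been seen. On it Phlda1 was also lower by 1 or more (-1.26) and Spry2 was at -0.97. The median of that list was 0.08, however, and 8 genes were above 0, against 56.3% of all genes.

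Hmga2, a chromatin protein of proliferating and migrating cells, had a median TPM of 62.4 in untreated cells (1.49 to 997) and 23.9 in treated cells (0 to 389), a difference of -1.42. Inhba, the activin A subunit, had a median TPM of 331 in untreated cells (0 to 3156) and 145 in treated cells (0 to 821), a difference of -1.31. Ifrd1, Ap1s2, Grina and Fam199x had differences of -1.43, -1.35, -1.35 and -1.29. All 8 integrin subunits compared had a difference below 0, with a median of -0.30 and 0 past 1. Over all genes the median was 0.06, 56.3% were above 0, and 3.06% were higher and 0.576% lower by 1 or more. Itgb1, the integrin beta 1 chain that anchors basal cells, was at -0.83 and Itga5, a fibronectin receptor chain, at -0.81.

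**Figure D3:**
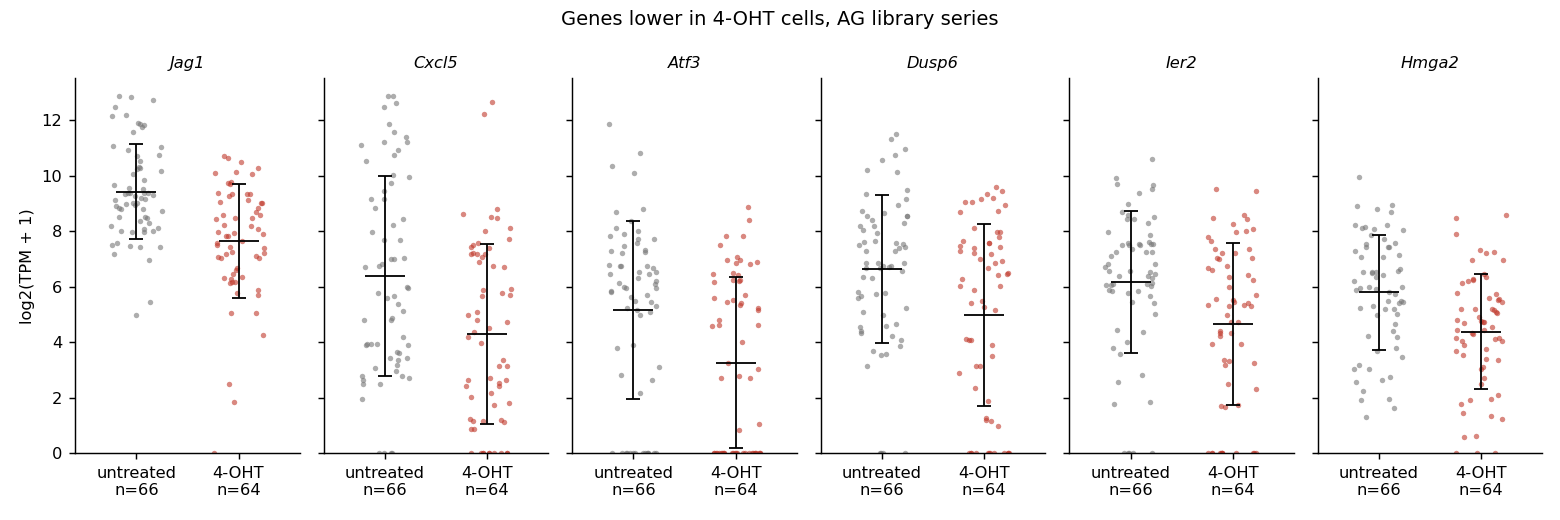
Log2(TPM + 1) of 6 genes lower in treated cells, in each AG cell, untreated (grey, 66 cells) and 4-OHT treated (red, 64 cells), with the mean as a bar and the SD over cells as whiskers. Jag1 had a median TPM of 608 in untreated and 235 in treated cells, and for Atf3 more treated cells lay at 0.

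The beta-catenin target genes held no difference of 1 or more, where 3.06% of all genes were higher and 0.576% lower by that much. At those shares a list this short can hold none. Of 14 compared, 11 were below 0 and the median was -0.14, where 56.3% of all genes were above 0 and their median was 0.06. Axin2, the negative feedback gene most often used as a readout of the pathway, was over 1 TPM in 8 untreated and 10 treated cells, with a difference of 0.03. Ccnd1 (cyclin D1) was at -0.53, Bmp4 at 0.07 and Sox4 at -0.77. Lef1 was over 1 TPM in 1 of the 130 cells, with a highest value of 1.10, but in 23.6% of the 140 GHA501A cells. Its AG values were not used as a readout of the pathway. Ctnnb1, which encodes beta-catenin, was over 1 TPM in 0 of 130 AG cells, with a highest value of 0.42, but in 99.3% of the 140 cells of the GHA501A series. A gene that these cells use was thus near 0 throughout, and its AG values were not read as expression. The 8 oestrogen-responsive genes had a median of 0.09 and 0 past 1, with Igfbp4 at -0.97 and Ltf at 0.32. The same limit of list length holds for them.

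The remaining lists had medians between -0.13 and 0.27, and the only members past 1 in them were Hells, Inhba, Cxcl5 and Mt2. Suprabasal and cornified envelope genes had a median of 0.27 over 11 genes, with Sprr1b at 0.73 and Ivl (involucrin) at -0.43, and Krt10 was at 0.56. Basal keratinocyte genes had a median of -0.06 over 12 genes, with Krt14 at 0.15 and Krt5 at 0.04. S-phase genes had a median of -0.03 over 20 genes, with Hells, a chromatin remodeller of replicating cells, at -1.13 and Mcm6 at 0.60. G2/M genes had a median of -0.02 over 23 genes, with Top2a at -0.70 and Mki67 at 0.54. Smad4, Bcl3 and Foxm1, transcription factors named in the study, were at 0.40, 0.41 and 0.45, with Smad4 and Bcl3 at -0.68 and -0.18 from the logarithm of the mean TPM, and Smad3 and Klf5 were at -0.44 and -0.49.

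**Figure D4:**
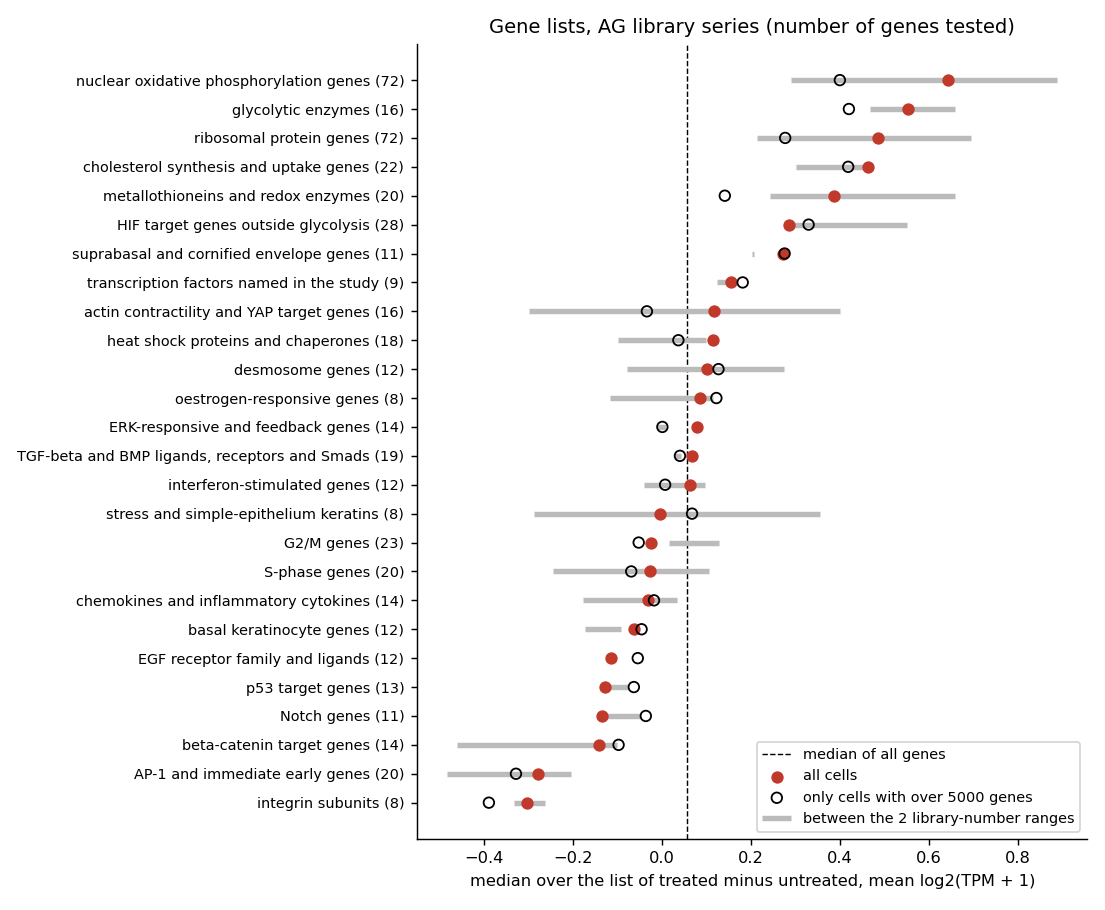
Median over each gene list of the treated minus untreated difference in mean log2(TPM + 1), for all AG cells (red), for cells with more than 5000 genes (open) and between the values of library numbers up to 96 and over 96 (grey bar), with the median of all genes dashed. Oxidative phosphorylation genes, which as a list stayed above 0 in both ranges of library numbers, stood highest at 0.64 and integrin subunits lowest at -0.30.

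The share of cells with TPM over 1 was higher in treated cells by 25 percentage points or more for 49 genes (0.448%) and lower by as much for 11 genes (0.101%). Tbccd1, which organises the centrosome and Golgi, was over 1 TPM in 26 of 66 untreated cells (39.4%, interval 27.6% to 52.2%) and 50 of 64 treated cells (78.1%, interval 66.03% to 87.5%). Gadd45g, a growth arrest and stress gene, was over 1 TPM in 42.4% of untreated cells (interval 30.3% to 55.2%) and 78.1% of treated cells (interval 66.03% to 87.5%). Slc18a2, a vesicular monoamine transporter, and Trmt112, a methyltransferase cofactor, were over 1 TPM in 43.9% and 37.9% of untreated cells and 78.1% and 70.3% of treated cells. Serpina3g, a serine protease inhibitor, was over 1 TPM in 9 untreated cells (13.6%, interval 6.43% to 24.3%) and 29 treated cells (45.3%, interval 32.8% to 58.2%).

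On the lower side, Ptprn2 was over 1 TPM in 66.7% of untreated and 34.4% of treated cells, and Gucy1a2, a guanylate cyclase subunit, in 92.4% and 62.5%. The values were 57.6% and 26.6% for Dido1, 53.03% and 23.4% for Trp53rkb, and 33 of 66 and 13 of 64 cells for Chst3. Median TPM in untreated cells was between 0.98 and 3.27 for these genes, close to the limit of 1 TPM. Chst3 turned to 1.61 percentage points higher in treated cells when the limit was TPM over 10.

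**Figure D5:**
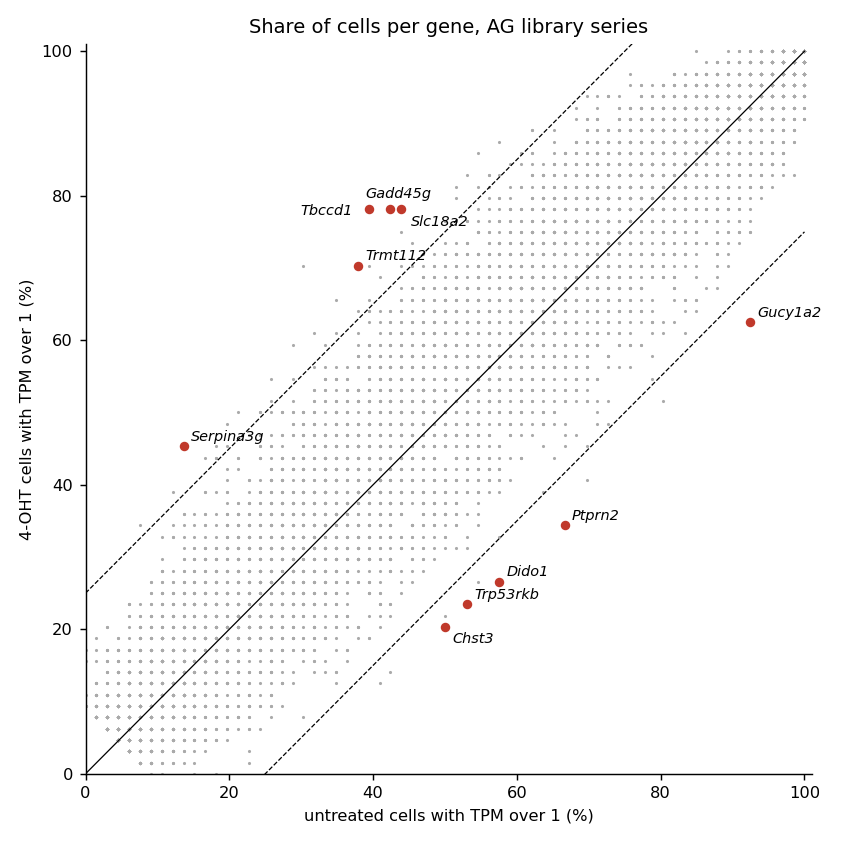
Share of treated cells with TPM over 1 against that of untreated cells, 1 grey point per gene for 10940 genes, with equality as a solid line, 25 percentage points as dashed lines and the named genes in red. Tbccd1 stood at 39.4% and 78.1%, and Gucy1a2 at 92.4% and 62.5%.

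The GHA501A library series held the same contrast in other cells (71 untreated, 69 treated), which were not alike in make-up: Col1a1 was over 1 TPM in 140 of 140 GHA501A cells and in 44 of 130 AG cells, and the median TPM of Krt14 was 5.60 against 4908. Across genes, the differences of the 2 series had a Pearson correlation of -0.06. Of the 335 genes higher by 1 or more in AG, 33.4% were above 0 in GHA501A, as were 39.4% of all genes compared, and of the 63 genes lower by 1 or more, 41 (65.1%) were below 0, as were 57.9% of all genes. Some of the members above had the same sign in GHA501A, with Adm at 0.79, Ankrd37 at 0.49, Bnip3 at 0.29, Aldoc at 0.71 and Ndufa4l2 at 0.21. Inhba was at -1.33, Grina at -0.92, Spry2 at -1.06, Dusp6 at -0.59 and Jag1 at -0.56, whereas Cxcl5 and Atf3 were at -0.07 and -0.13. Others, among them Mt2 at -1.03, Ebp at -1.05 and Cav2 at -0.26, had the other sign than in AG. The median of the HIF list was 0.22 and that of glycolytic enzymes 0.19, and those of oxidative phosphorylation and ribosomal protein genes were -0.15 and -0.04. Cholesterol genes had a GHA501A median of -0.09 and redox genes one of -0.31. The medians were 0.015 for AP-1 and immediate early genes, -0.03 for integrin subunits and -0.04 for beta-catenin targets. Over all genes compared the GHA501A median was -0.06.

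With the 4 library sets as samples, 2 per condition, and the series as a block, limma's moderated test called 0 of 10940 genes (0%) at an adjusted p under 0.05, and 327 genes had an unadjusted p under 0.05. Inhba differed by -1.32 ± 0.21 (SE, limma, 4 sets, adjusted p = 0.999) and Adm by 1.47 ± 0.37 (SE, limma, 4 sets, adjusted p = 0.999). With so few sets the moderated SE leaned on the spread of all genes. That of Inhba, 0.2143, was also the SE of Rnf43 and Fzd7, so it does not measure the spread of Inhba alone. Both Inhba and Adm were named for their large AG differences, which enter this fit.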

How the data were processed

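The deposited values are TPM for 14145 genes in single mouse keratinocytes. Per the submitters' processing notes and the study's methods, the authors used FastQC, cutadapt, TopHat against GRCm38 and featureCounts, discarded reads mapping to several places and converted the counts to TPM. Cells had been captured on a C1 Fluidigm chip and amplified with SMART-Seq v4. TPM sums to 1000000 in every cell, so the sequencing depth of a cell is unknown and low values carry an error that cannot be given. Multiply-mapped reads being discarded lowers genes with near-identical copies. Of 294 columns, 16 matched no label and were not used.

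Genes with TPM over 1 in more than 5 of the 130 AG cells entered, on the log2(TPM + 1) scale (pseudocount 1), which understates the change of low genes. Means, SDs and shares over cells were computed in Python 3.11.15 with pandas 2.3.3, numpy 2.4.6 and scipy 1.17.1, and plots with matplotlib 3.10.9. With 1 set of cells per condition there was no test within the AG series. The only test was limma 3.58.1 in R 4.3.3 on the means of 4 library sets, with the series as a block and Benjamini-Hochberg adjustment. The steps were checked on simulated data with known differences.

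The cells and gene lists were chosen with earlier results of these data known. Named genes were, each requiring the same sign among library numbers up to 96 and over 96, the 10 largest level differences in each direction among genes with TPM over 1 in at least 25% of the cells of either condition, the 5 largest in each direction among genes with TPM over 1 in at least 90% of the cells of both, and the 5 largest in each direction by share. The extremes of each list and a set of genes of the study were added. Symbols of predicted genes were counted but not named. Other genes, among them Pdk1, Car9, P4ha1, Loxl2, Hif1a, Fos, Jun, Junb, Egr1, Eno1, Pkm, Pgk1, Slc2a1, Acat2, Sdhd, Phlda1, Spry2, Egln3, Ndrg1, Itga5 and Notch2, were chosen after their values were seen. Gene positions are from GENCODE M21 and promoters from RefSeq.

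Alternatives were a pseudocount of 0.1, other filters and detection limits, the 8 conflicting cells placed by title or by library name, cells with more than 5000 genes only, each range of library numbers, size-factor scaling, the logarithm of the mean TPM, and, chosen after seeing the data, the near-identical treated libraries 90 and 91 averaged as 1 cell. Not all of them were run for every result, and those run for the fit of the 4 sets are named in the closing section.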

Additional observations from a re-analysis of the deposited data

How the results depend on the processing

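The share of genes higher by 1 or more went from 3.06% to 10.5% with a pseudocount of 0.1, 1.97% with only cells of more than 5000 genes and 9.36% with only library numbers up to 96. The share lower by 1 or more went from 0.576% to 2.46% with a pseudocount of 0.1, 1.75% with numbers up to 96, 3.51% with numbers over 96 and 9.84% with the logarithm of the mean TPM, which also moved the median over all genes to -0.11. Genes higher in share of cells by 25 percentage points or more went from 0.448% to 0.695% (TPM over 0), 0.219% (conflicting cells by title), 2.63% (numbers up to 96) and 0.969% (numbers over 96), and those lower from 0.101% to 0.0091% (TPM over 0), 0.256% (TPM over 10), 0.393% (numbers up to 96) and 1.37% (numbers over 96). Each range of library numbers holds fewer cells than the whole. The median difference in SD went from -0.11 to -0.30 (numbers up to 96) and 0.13 (numbers over 96), and for ribosomal protein genes from -0.53 to -0.40 (conflicting cells by title), -0.23 (more than 5000 genes), -1.07 (numbers up to 96) and 0.069 (numbers over 96). The share of Chst3 turned to 1.61 points at TPM over 10. The cause of these shifts was not tested. The fit of the 4 sets called 0 genes under each alternative run for it, which were a pseudocount of 0.1, no filter, the logarithm of the mean TPM, cells with more than 5000 genes, conflicting cells by title, the near-identical pair counted as 1 cell, no replicate block (0 genes, 3 with an unadjusted p under 0.05) and each set left out in turn, where a lone set was assumed to vary like the others. With the block, no set could be left out, as no residual degrees of freedom remained. Of 924 recomputed level differences of named genes, 849 stayed on their side of 1, and 0 of those past 1 changed sign. Leaving out the filter, or asking for TPM over 1 in at least 10% of cells, changes no gene's value. The 84 genes could therefore not move under either. Genes named for the size of their difference had also been required to keep their sign in both ranges of library numbers, so they could not reverse there. The medians of the HIF, glycolytic, oxidative phosphorylation, ribosomal, cholesterol and redox lists stayed above 0, and those of the AP-1, integrin and beta-catenin target lists below 0, under each of the 11 alternatives for levels.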

Other observations

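The library series differed in which genes were seen at all. There were 444 genes with TPM over 1 in at least 50% of GHA501A cells and in 5 or fewer of the 130 AG cells, and 98 genes the other way round. Ctnnb1 (beta-catenin) had a median TPM of 0 in AG and 56.5 in GHA501A, and Mxi1, a MYC antagonist, was over 1 TPM in 0 AG and 80 GHA501A cells. Itgb4, the hemidesmosome integrin of basal keratinocytes, was listed at 0 in all AG cells, while its partner Itga6 was over 1 TPM in 96.9% of them. These genes were chosen after their values were seen.

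The 8 AG cells with conflicting labels were placed in no condition. Among them, the 3 with the treated library name (titled untreated) had Jag1 at 195.9, 90.9 and 224.5 TPM. The 5 with the untreated library name (titled treated) had it at 174.4, 1340, 623.3, 207.9 and 2698 TPM. Bnip3 was at 2379, 3016 and 2555 TPM in those 3 cells. In those 5 cells Bnip3 was at 2275, 2547, 34.2, 2999 and 1892 TPM. Which of the 2 labels is right was not tested.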
